A study of Saccharomyces cerevisiae with 4 samples.

Results

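The 10 yeast genes described here encode the enzymes that make and remodel beta-glucan, the main structural polymer of the cell wall of Saccharomyces cerevisiae. They were taken by name from the table of array rows: the glucan synthases FKS1 (YLR342W), GSC2 (YGR032W) and KRE6 (YPR159W), the transferases GAS1 (YMR307W), GAS3 (YMR215W) and GAS5 (YOL030W), and the glucanases BGL2 (YGR282C), SCW4 (YGR279C), SCW10 (YMR305C) and EXG1 (YLR300W). Of the 10, 9 had a row among the 6207 yeast rows, and 8 had a value on all 4 arrays and were tested. KRE6 had values on 3 arrays, and GAS1 was not analysed here. Each hog1 mutant culture was split into cells given 5 units/ml of Zymolyase 100T and harvested at 3 h and cells kept without it, both in the rich medium YEPD at 24 °C, and each array compared treated with untreated RNA. All cells carried the hog1 mutation, in the gene of the osmostress MAP kinase Hog1, and wild-type cells were not analysed here. RNA of 2 cultures was hybridised with the dyes swapped on 4 arrays; which of them came from the same culture is not labelled.

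Beta-1,3-glucan is spun out at the plasma membrane by a synthase whose catalytic subunit is Fks1 or its close relative Gsc2 (Fks2), switched on by the small GTPase Rho1. The new chains are elongated outside the cell by the Gas transferases, which cut a chain and join it to another, and branched and trimmed by glucanases. Beta-1,6-glucan, which links mannoproteins to the wall, needs Kre6 and other Kre proteins. Zymolyase digests beta-1,3-glucan, the polymer that most of these genes build or reshape.

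Values are log2 ratios of Zymolyase-treated over untreated RNA, after the sign was turned on arrays 2 and 4, where the treated RNA carried Cy5. This direction was assumed, as the sources used here do not state it, and the opposite numerator would turn every sign below. All 9286 turned values under 0 are logarithms of a ratio with 4 decimals, against 56.5% by chance. The opposite sign gave 55.4%, against 54.9% by chance, so the ratios were formed the turned way on every array. This alone does not tell a fixed condition from a fixed dye as numerator. With a fixed dye, a difference between conditions would change sign between the dye orientations. Between arrays of opposite orientation the turned ratios correlated with a Pearson r of 0.24 to 0.57 over tested rows, so 1 condition was likely the numerator on all arrays. These values do not tell which condition it was. The number of yeast rows with a value was 2794, 4162, 5322 and 5127 on arrays 1 to 4, and 2715 rows had all 4. HOG1 had a value on 0 arrays, so the strain could not be checked. A ratio says nothing of the level of a gene, and levels of different genes are not compared.

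Most of the enzymes had ratios above 0 in the Zymolyase-treated cells, by less than 2-fold on average, and none passed the test over all genes. Of the 8 tested enzymes, GAS5 and BGL2 had the largest means, 0.72 ± 0.10 and 0.70 ± 0.45 (SD, n = 4 arrays), which are 1.64-fold and 1.62-fold. Of the other tested enzymes, GSC2 and FKS1 had 0.61 ± 0.63 and 0.57 ± 0.51, and SCW10 was at −0.03 ± 0.16. The mean was above 0 for 7 of the 8 tested enzymes, against 40.6% of all tested genes. All 4 arrays were above 0 for 4 of them (GAS3, GAS5, BGL2 and EXG1), against 9.83% of all tested genes. The median of the 8 means was 0.53, and the median of all tested genes was −0.05. By limma with the culture as replicate (n = 2), 0 of 8 had an adjusted p under 0.05, against 2.21% of all tested genes in either direction and 2.03% that were higher. At an unadjusted p under 0.05 by limma there were 5 (FKS1, GAS3, GAS5, BGL2 and EXG1), all with means above 0, against 8.14% of all tested genes that were higher at that threshold. The pairing of arrays 1 and 2, and 3 and 4, gave each of these 5 its larger p. If arrays 1 and 4, and 3 and 2, shared a culture, 5 of 8 were called (FKS1, GSC2, GAS5, BGL2 and EXG1), against 10.2% of all tested genes. In that fit every gene was given the same variance, pooled over all genes. With the 4 arrays taken as replicates, limma called GAS5 and BGL2 with a dye term (4.38% of all tested genes) and GAS5 alone without it (3.57%), and after each array was centred on its median it called GAS5 and BGL2 (3.28%).

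**Figure D1:**
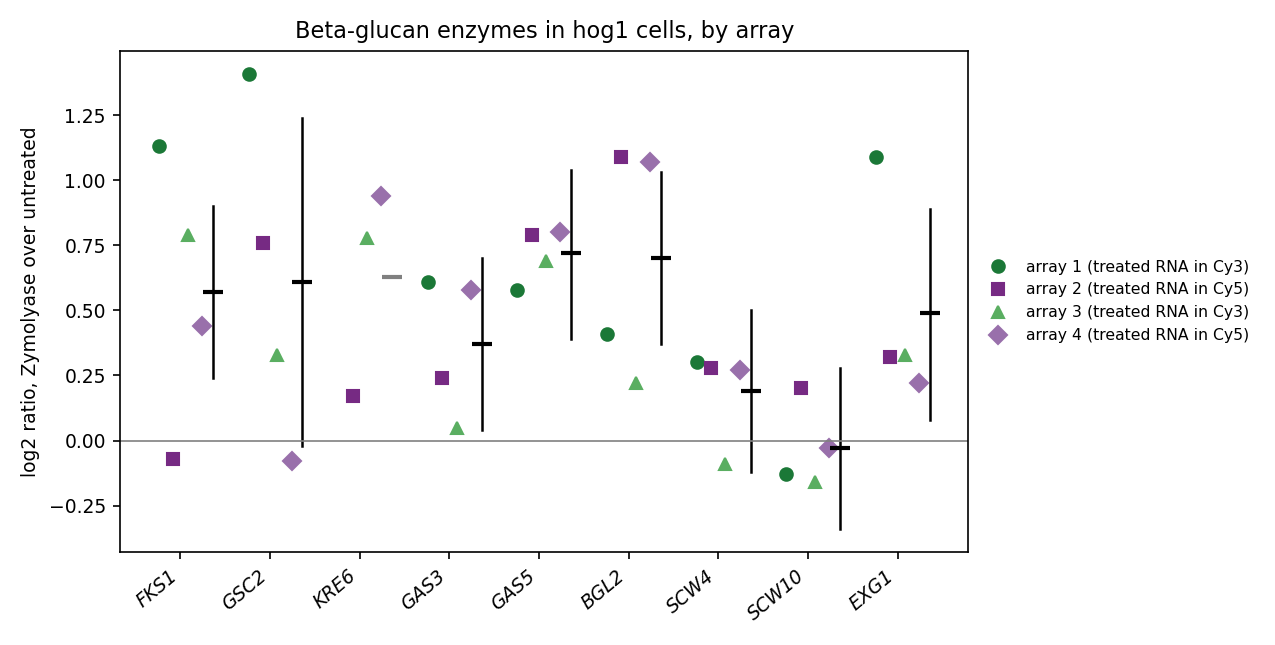
Log2 ratio of Zymolyase-treated over untreated hog1 cells (vertical axis) for the 9 enzymes with a row, with 1 symbol per array; green symbols mark treated RNA in Cy3 and purple symbols treated RNA in Cy5. The black bar is the mean with its 95% interval over 2 culture means, from the pairing with the larger p. For SCW4 and SCW10 the width of the interval comes from a variance pooled over all genes. The grey bar for KRE6 is a mean over 3 arrays with no test. The 4 points of GAS5 lie close together (0.58 to 0.80) and those of GSC2 spread from −0.08 to 1.41.

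Among the synthases, FKS1, the catalytic subunit used in growing cells, had log2 ratios of 1.13, −0.07, 0.79 and 0.44 on arrays 1 to 4. It was high on arrays 1 and 3 and at about 0 on array 2. Its mean was 1.49-fold, with a 95% interval of 1.18-fold to 1.87-fold and an adjusted p of 0.15 by limma. GSC2, the catalytic subunit known to be induced by wall stress and by calcineurin signalling, had 1.41, 0.76, 0.33 and −0.08 on the same arrays. Its highest value was on array 1 and its lowest on array 4, and the spread exceeded the mean. The mean was 1.52-fold, with a 95% interval of 0.984-fold to 2.35-fold that includes no change (limma adjusted p = 0.348). The mean log2 ratio of GSC2 was 0.34 without array 1. KRE6, a membrane protein of the secretory pathway that is needed for beta-1,6-glucan, had 0.17, 0.78 and 0.94 on arrays 2, 3 and 4 and no value on array 1. All 3 values were above 0, with a mean of 0.63 ± 0.41 (SD, n = 3 arrays). In a fit of all rows with at least 3 arrays its adjusted p by limma was 0.408.

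The paralogues FKS1 and GSC2 therefore had nearly equal mean ratios, but not on the same arrays. GSC2 minus FKS1 was 0.28, 0.83, −0.46 and −0.52 on arrays 1 to 4, a mean of 0.03 ± 0.64. GSC2 was the higher of the pair on 2 of 4 arrays. The 2 genes are close in sequence and their labelled cDNA can bind each other's array feature; how far it did was not tested.

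Of the transferases, GAS5 had the steadiest ratio of all the enzymes, with log2 ratios of 0.58, 0.79, 0.69 and 0.80 on arrays 1 to 4. Every array lay well above 0, and only 4.24% of tested genes had a smaller SD. GAS5 encodes a glucanosyltransferase held at the cell surface by a lipid anchor. The 95% interval of its mean was 1.31-fold to 2.06-fold, and its adjusted p of 0.0824 by limma was the lowest of the 8. GAS3, of the same protein family, had 0.61, 0.24, 0.05 and 0.58, all above 0 but close to it on array 3. Its mean was 0.37 ± 0.27, or 1.29-fold, with a 95% interval of 1.03-fold to 1.63-fold (limma adjusted p = 0.306). GAS5 exceeded GAS3 on 3 of 4 arrays, by a mean of 0.35 ± 0.30. The difference was not tested: the arrays are dye swaps of 2 cultures, over which an exact two-sided sign-turn test cannot go below p = 0.5.

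The glucanases differed most among themselves. BGL2, an abundant wall endoglucanase that can also join glucan chains, had log2 ratios of 0.41, 1.09, 0.22 and 1.07 on arrays 1 to 4. All were above 0, and both arrays with treated RNA in Cy5 were far above both with Cy3. Its mean was 1.62-fold, with a 95% interval of 1.29-fold to 2.04-fold and an adjusted p of 0.0899 by limma. Without array 3, GAS5 and BGL2 were called, with adjusted p-values of 0.0182 and 0.00119 by limma, against 4.75% of all tested genes. Array 3 had treated RNA in Cy3, so 1 culture mean was then a single Cy5 array, in which dye does not cancel. The mean of BGL2 in that fit was 0.86. Without array 1, 2 or 4 no enzyme was called, against 2.65%, 0.81% and 2.1% of all tested genes. The adjusted p by limma in those fits was 0.061, 0.322 and 0.215 for GAS5, and 0.0524, 0.563 and 0.611 for BGL2.

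EXG1, the main secreted exoglucanase, had 1.09, 0.32, 0.33 and 0.22 on arrays 1 to 4. It was above 0 on every array, but array 1 stood far from the other 3. Its mean of 0.49 ± 0.40 (1.40-fold, 95% interval 1.06-fold to 1.86-fold, limma adjusted p = 0.292) was 0.29 without array 1.

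SCW4 and SCW10 encode soluble wall proteins of the same family as Bgl2. SCW4 had 0.30, 0.28, −0.09 and 0.27 on arrays 1 to 4, a mean of 0.19 ± 0.19 with a 95% interval of 0.923-fold to 1.41-fold (limma adjusted p = 0.557). It was slightly above 0 except on array 3. SCW10 had −0.13, 0.20, −0.16 and −0.03, on both sides of 0, with a 95% interval of 0.792-fold to 1.21-fold (limma adjusted p = 0.938). The intervals of SCW4 and SCW10 leave out a change of 1.5-fold in either direction, while those of FKS1, GSC2, GAS3, GAS5, BGL2 and EXG1 include 1.5-fold. For SCW4 and SCW10 the interval comes from the pairing of arrays 1 and 4, and 3 and 2, with a variance pooled over all genes. Its width therefore does not rest on the spread of either gene between cultures.

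Within this family BGL2 exceeded SCW4 on 4 of 4 arrays, by 0.51 ± 0.36, and SCW10 on 4 of 4 arrays, by 0.73 ± 0.33. SCW4 exceeded SCW10 on 4 of 4 arrays, by 0.22 ± 0.18. For the same reason these 3 differences were not tested.

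By class, the median of the means was 0.59 for the 2 tested synthases, 0.54 for the 2 tested transferases and 0.34 for the 4 glucanases, against −0.05 for all tested genes. The glucanase means ran from −0.03 to 0.70 and so enclosed those of the other classes, which were 0.57 to 0.61 for synthases and 0.37 to 0.72 for transferases. On arrays 1 to 4 the synthase median was 1.27, 0.34, 0.56 and 0.18, the transferase median 0.59, 0.51, 0.37 and 0.69, and the glucanase median 0.36, 0.30, 0.07 and 0.24. Glucanases were below transferases on every array, and below the 2 tested synthases on every array but the fourth. KRE6, grouped with the synthases but left out of these medians, had 0.17, 0.78 and 0.94 on arrays 2 to 4. With it the middle synthase value was 0.17 on array 2, below the glucanases, and 0.44 on array 4, above them. Without array 1 the synthase median was 0.36 and the glucanase median 0.22. With so few genes a class, the differences between classes were not tested.

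**Figure D2:**
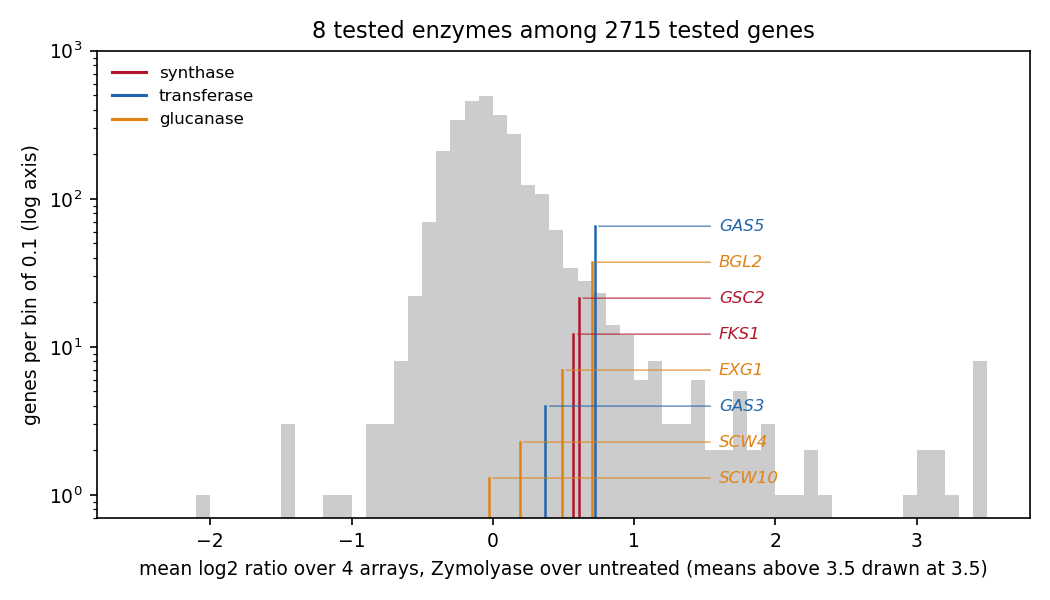
Number of genes (vertical log axis) by mean log2 ratio over 4 arrays (horizontal axis, bins of 0.1) for 2715 tested genes in grey, with the 8 tested enzymes as coloured lines whose height has no meaning; 8 genes with means above 3.5 are drawn at 3.5. All enzymes but SCW10 lie right of the peak of the distribution, and the largest means of the 8, of GAS5 and BGL2 at 0.72 and 0.70, are far from the top of the range, at 6.51.

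Against all 2715 tested genes, GAS5 ranked 105 from the top by mean ratio, BGL2 109, GSC2 134, FKS1 148, EXG1 174, GAS3 260, SCW4 478 and SCW10 1235. With the opposite numerator these ranks would count from the bottom. A mean of at least 0.5 was reached by 4 of the 8 enzymes (FKS1, GSC2, GAS5 and BGL2), against 6.26% of tested genes. On single arrays the number of the 8 enzymes above 0 was 7, 7, 6 and 6 for arrays 1 to 4, against 43.5%, 46.1%, 44.6% and 45.6% of tested genes. In all, 26 of their 32 values lay above 0. These counts describe genes that share the same 4 arrays, and no test was made over the set.

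Dye orientation moved with the size of several ratios. FKS1 averaged 0.18 on the arrays with treated RNA in Cy5 and 0.96 on those with Cy3, a gap (Cy5 minus Cy3) of −0.78. GSC2 and EXG1 had gaps of the same sign, −0.53 and −0.44, while BGL2 had one of 0.76, with 1.08 for Cy5 and 0.32 for Cy3. The gaps of GAS3, GAS5, SCW4 and SCW10 were smaller, between 0.08 and 0.23. Both orientation means were above 0 for all tested enzymes other than SCW10. The part of dye in these values was not tested. The mean of a dye-swap pair cancels a constant dye effect.

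**Figure D3:**
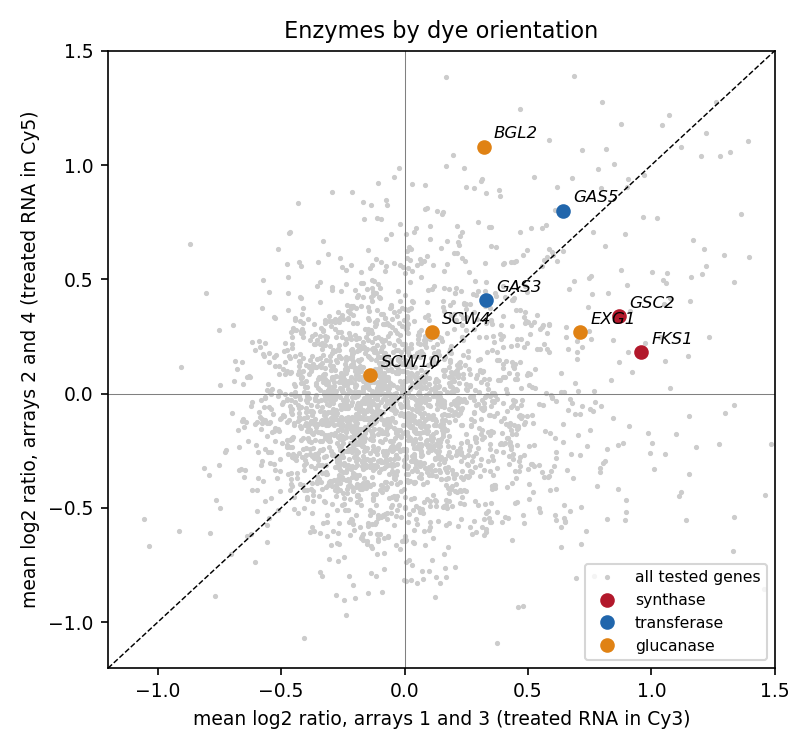
Mean log2 ratio on arrays 2 and 4, with treated RNA in Cy5 (vertical axis), against that on arrays 1 and 3, with treated RNA in Cy3 (horizontal axis), for all tested genes in grey and the 8 enzymes in colour; the dashed line marks equal means, and 65 genes fall outside the axes. FKS1, GSC2 and EXG1 lie below the line, BGL2 above it, and GAS3 and GAS5 close to it in the upper right.

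The 2 ways to pair the arrays give different spreads between cultures. For GSC2 the culture means were 1.08 and 0.13 with arrays 1 and 2, and 3 and 4, as pairs, but 0.67 and 0.55 with arrays 1 and 4, and 3 and 2. EXG1 likewise had 0.70 and 0.27, or 0.65 and 0.33. FKS1 had 0.53 and 0.62, or 0.78 and 0.36. GAS5 and BGL2 hardly moved, with 0.69 and 0.74 for GAS5 under either pairing, and 0.75 and 0.64, or 0.74 and 0.65, for BGL2.

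A further 23 genes of beta-glucan synthesis and turnover were listed, of which 11 were tested. Of these 0 were called by limma in either direction, against 2.21% of all tested genes. At an unadjusted p under 0.05 by limma, 4 were higher (RHO1, KRE9, KRE1 and EXG2), against 8.14% of tested genes, and 1 was lower (DSE2), against 6.59%. Means were above 0 for 10 of the 11, against 40.6% of all tested genes, with a median of 0.33, against −0.05 for all tested genes. The listed genes with values on only some arrays were more mixed. Their means were below 0 for DSE4, FKS3, KRE5 and ACF2 and above 0 for SKN1, GAS2, TRS65 and KEG1.

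RHO1, the GTPase that activates the synthase and the wall integrity kinase Pkc1, had log2 ratios of 0.39, 0.71, 0.21 and 0.79 on arrays 1 to 4. All were above 0, with a mean of 0.52 ± 0.27 (1.44-fold, limma adjusted p = 0.18). SMI1, a regulator of glucan synthesis, had 0.10, 0.38, 0.43 and 0.41, a mean of 0.33 ± 0.15 (limma adjusted p = 0.348), and was named after its values were seen. FKS3, a further relative of FKS1, had −0.08 on array 3 and no other value.

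All 6 tested genes of beta-1,6-glucan formation had means above 0, as 40.6% of all tested genes did. KRE9, a secreted protein needed for this polymer, had 0.62, 0.50, 0.26 and 0.65, a mean of 0.51 ± 0.18 (1.42-fold, limma adjusted p = 0.204). KRE1, a cell surface glycoprotein that acts late in its assembly, had 0.43, 0.65, 0.37 and 0.48, a mean of 0.48 ± 0.12 (1.40-fold, limma adjusted p = 0.227). Both lay above 0 on every array. The other 4 act in the endoplasmic reticulum, and their means were 0.35 ± 0.42 for CNE1, 0.21 ± 0.16 for ROT1, 0.19 ± 0.49 for CWH41 and 0.16 ± 0.30 for ROT2. Of these 4, ROT1 was also above 0 on every array (0.40, 0.28, 0.12 and 0.04). SKN1, the paralogue of KRE6, had 1.34 on array 3 and no other value. KRE5, KEG1 and TRS65 had values of both signs on 3 arrays.

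The other glucanases went both ways. EXG2, an exoglucanase anchored at the cell surface, had −0.17, 0.87, 0.80 and 1.01 on arrays 1 to 4, high on all but array 1. Its mean was 0.63 ± 0.54 (1.54-fold, limma adjusted p = 0.243), and it was called without array 1 (0.89, limma adjusted p = 0.0305, against 2.65% of all tested genes called) and, like RHO1, without array 3 (limma adjusted p = 0.0414 for EXG2 and 0.0463 for RHO1, against 4.75%). Without arrays 2 and 4 in turn EXG2 had adjusted p-values of 0.605 and 0.749 by limma, and without arrays 1, 2 and 4 in turn RHO1 had 0.167, 0.575 and 0.675. Without array 1 or 3, 1 culture mean was a single array with treated RNA in Cy5, in which dye does not cancel. The gaps (Cy5 minus Cy3) of EXG2 and RHO1 were 0.62 and 0.45.

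DSE2, a daughter-cell gene with a glucanase-like product that acts in cell separation, had −0.45, −0.04, −0.83 and −0.21. All 4 values were below 0, as in 15.2% of tested genes, and the mean was −0.38 ± 0.34 (0.768-fold, limma adjusted p = 0.319), or −0.23 without array 3. DSE4, the endoglucanase that cuts the septum between mother and daughter, had −0.83, −0.31 and −0.63 on arrays 2, 3 and 4, and was named after its values were seen. SCW11, another daughter-cell glucanase of the Bgl2 family, had −0.04, 0.09, 0.82 and 0.03, near 0 but for array 3. Of the remaining genes on the list, GAS2 had −0.09 and 0.61 on arrays 3 and 4, ACF2 had −0.02 on array 3, and KNH1, BIG1, GAS4 and SPR1 had no value.

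**Figure D4:**
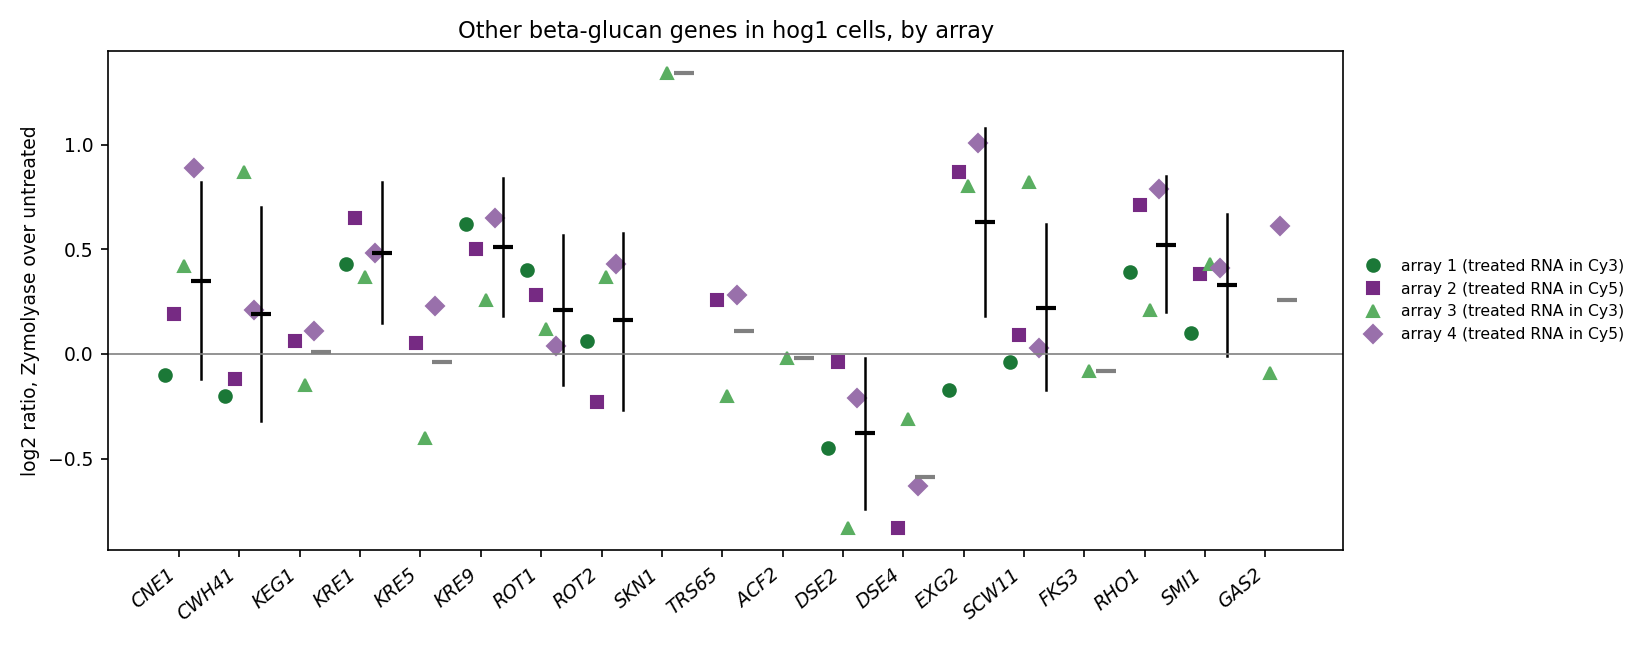
Log2 ratio of Zymolyase-treated over untreated hog1 cells (vertical axis) for the 19 other beta-glucan genes with any value, with 1 symbol per array, green for treated RNA in Cy3 and purple for Cy5; black bars are means with 95% intervals over 2 culture means from the pairing with the larger p, and grey bars means without a test. KRE1, KRE9, RHO1, ROT1 and SMI1 lie above 0 on all arrays, while DSE2 and DSE4, and ACF2 and FKS3 with 1 value each, have no value above 0.

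Several of these genes are neighbours. In RefSeq's R64 gene order, SCW10, FKS3 and GAS1 follow each other on chromosome XIII, SCW4 and BGL2 stand on chromosome VII with 2 genes between them, CWH41 and SCW11 lie side by side on the same chromosome, and FKS1 and GAS2 on chromosome XII with 1 gene between them. The means of BGL2 and SCW4 were 0.70 and 0.19, with overlapping 95% intervals. The means of CWH41 and SCW11 were 0.19 and 0.22, and both had their highest value on array 3, at 0.87 and 0.82. The share of tested genes with their highest value on array 3 was not counted. For SCW11 that value lay apart from those on the other arrays.

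The genes outside the set whose 4 ratios lay nearest to those of GAS5 were GLK1, a glucokinase, FRD1, a fumarate reductase, and CSI2, at Euclidean distances of 0.18, 0.19 and 0.22 on the log2 scale over 4 arrays. Their means were 0.65, 0.71 and 0.76, and none was called (limma adjusted p of 0.106, 0.102 and 0.0794).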

How the data were processed

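Per the labels, total RNA of hog1 cells was labelled with Cy3 or Cy5 and hybridised to 2-colour arrays. The authors deposited 1 table of normalized log2 ratios per row and array; how images were read, background corrected, ratios normalized and cells left blank is not given in the sources used here. After 2 control rows were dropped from 6209, a locus tag of RefSeq's R64 table gave 5654 of 6207 yeast rows their symbol. Array signs were turned by the dyes in the labels. The 2 means of dye-swap pairs were tested against 0 with limma 3.58.1 (R 4.3.3) for each of the 2 possible pairings. The prior degrees of freedom were 4.13 for arrays 1+2 and 3+4, and infinite for arrays 1+4 and 3+2. With the infinite prior, every gene was given the same variance, pooled over all genes. The larger p per gene was kept and adjusted by Benjamini-Hochberg over 2715 rows. The fit was tested on simulated data. There the 4 arrays were independent, with no shared culture and no dye effect, so that test does not cover the unknown pairing. The number of arrays and cultures limits the precision, and no spot intensities were used. Named by a set rule were all members, the 5 tested pathway genes with the largest mean in size, any called, and the 3 genes nearest the member with the largest mean. The other listed beta-glucan genes were named outside this rule. Members and lists were chosen with earlier results of these data known. The pairs of related enzymes were chosen after the data were seen.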

Additional observations from a re-analysis of the deposited data

Results flagged for a closer look

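In 4 of 22 named or listed genes with 4 values, 1 array lay apart from the remaining 3. About 1.1 such genes would arise by chance if the 4 values of a gene were independent and equally spread. The arrays are dye swaps of shared cultures, so this number need not hold here. The share of all tested genes with such an array was not counted, so an excess in these genes was not tested. SCW4 was at −0.09 on array 3, against 0.27 to 0.30 on the others. EXG1 was at 1.09 on array 1, against 0.22 to 0.33. SMI1 was at 0.10 on array 1, against 0.38 to 0.43. SCW11 was at 0.82 on array 3, against −0.04 to 0.09.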

How the results depend on the processing

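Cultures were the replicates (n = 2), and which arrays shared a culture is not known. The calls depended on the pairing that was fitted, and the 2 fits also differed in prior degrees of freedom. These were 4.13 with arrays 1+2 and 3+4 as pairs, and infinite with arrays 1+4 and 3+2. GAS5 had culture means of 0.69 and 0.74 under either pairing, with unadjusted p-values of 0.00238 and 4.84e-06 by limma. FKS1 had culture means of 0.53 and 0.62, or 0.78 and 0.36, with unadjusted p-values of 0.00658 and 0.000264 by limma. With arrays 1+4 and 3+2 as pairs, 5 of 8 enzymes, 4 of 11 other beta-glucan genes and 277 of 2715 genes (72.9% higher, against 91.7%) were called, where the larger p gave 0, 0 and 60. With 4 arrays as replicates and a dye term, 2 enzymes (GAS5 and BGL2) and 119 genes were called, and without the term 1 (GAS5) and 97. Centring each array called 2 enzymes (GAS5 and BGL2), and equal spread between arrays 31 genes. Without 1 replicate array, in fits where 1 culture mean was a single array, called enzymes ranged from 0 to 2, called other beta-glucan genes from 0 to 2, and called genes from 22 (without array 2) to 129 (without array 3). Dye does not cancel in a single array. Each call of an enzyme or other beta-glucan gene in these fits came without array 1 or 3, with treated RNA in Cy3. No member was called lower in any of the 12 alternatives. Calls of lower genes were few in general, at 0.184% of all tested genes with the larger p. The mean of SCW10 changed sign on centring (0.0176) and without 1 replicate array (−0.107 to 0.0134, with 0.00267 without array 1 and 0.0134 without array 3). By construction 6 of the 12 alternatives leave every mean as it is. Under the other 6 the remaining 7 tested enzymes had means above 0, with GAS5 between 0.69 and 0.76. The class medians there ranged from 0.36 to 0.72 for synthases, 0.49 to 0.60 for transferases and 0.22 to 0.41 for glucanases. For each class the lowest came without array 1 or 4. Each ratio already pairs treated with untreated RNA, so no further block was fitted. Except where the alternative itself removes an array, the cause was not tested.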
